A study of Mus musculus with 4 samples.

Results

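The erythroid and embryonic globin genes described here are 9 genes, namely the embryonic globin genes Hba-x, Hbb-y and Hbb-bh1, the erythroid regulators Klf1, Gata1 and Epor, and the erythroid products Alas2, Car1 and Slc4a1. They were chosen by name as embryonic globins and as regulators and products of the red cell lineage, because the transplanted cells came from fetal liver, a site of red cell production before birth. They account for 9 of the 18194 genes that the platform annotation names on these arrays. Every probe set annotated to 1 of these symbols alone was taken, 15 of 45101, and the probe set of highest mean log2 signal served as a gene's main probe set. The 6 regulators and products passed the filter on low values described further on. The 3 embryonic globin genes did not.

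The RNA came from mouse bone marrow cells of the Lin-Sca-1+c-Kit+ (LSK) surface phenotype, a fraction enriched for blood stem cells and early progenitors. The 2 necdin null arrays held cells from C57BL/6 mice whose blood system had been rebuilt from necdin null fetal liver, and the 2 wild type arrays held cells from C57BL/6 mice rebuilt from wild type fetal liver. All of the mice had received a sublethal dose of 6.5 Gy, so no array shows unirradiated cells. Reconstitution leaves the host's own stroma in place, and how many blood cells of the host remained, the age of the mice and whether animals were pooled are not given in the sources used here. Since the labels leave it unsaid if replicates are separate animals, p-values here describe the spread among these arrays, part of which may be technical. That spread is not a gene's own scatter alone. The limma p-values, standard errors and intervals borrow from other genes of similar signal, with 6.74 prior degrees of freedom beside 2 residual ones.

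Red cells form from stem cells by way of progenitors that are shared with megakaryocytes. GATA1, the founding factor of the GATA family, and KLF1, a zinc finger factor that binds CACCC boxes, switch on the genes for haemoglobin, haem synthesis and the red cell membrane, and the receptor for erythropoietin keeps committed progenitors alive. The embryonic globins belong to the first red cells of the yolk sac. Mouse fetal liver makes adult globins, and the embryonic genes are largely silent in the adult.

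The values are MAS5 signals on a linear scale. MAS5 is the Affymetrix method that combines the probes of a probe set into 1 brightness value. Signals of different probe sets depend on their probes, so each gene is compared with itself across arrays and no gene's level is set against another's. Signals of LSK markers are given as a description, since no array of other cells is there to check the label against. Kit had 6049 and 3744 in necdin null and 6617 and 3976 in wild type cells, and the stem and progenitor marker Cd34 had 13478 and 15252 in necdin null and 14722 and 13407 in wild type cells. Of 8 listed stem and progenitor markers 6 were named on the array and passed the filter, as did 12680 of all 18194 genes. Ly6a, which encodes Sca-1, was not analysed here. Genes of mature cells were bright too, as with the neutrophil gene S100a8 at 22732 and 55148 in necdin null and 14736 and 35494 in wild type cells. Ndn, the gene of necdin, was lower in the necdin null cells. Its main probe set gave 55.4 and 105 in necdin null cells and 253 and 255 in wild type cells, and probe set 1435383_x_at gave 1.74 and 4.86 in necdin null cells and 504 and 329 in wild type cells.

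Promoter sequences of 6 of the 9 genes were found in the RefSeq promoter table (build GRCm38.p6), and 4 of them are printed because their values form the main contrasts below: 2 embryonic globin genes whose signals were low on all arrays, Klf1, lowest in wild type replicate 2, and Alas2, highest there. Each line gives the 250 bases before the annotated start of the gene, read 5′ to 3′ along the gene. Capitals mark 3 motifs on either strand: GATA boxes (the letters GATA with A or T before them and A or G after them), CACCC boxes (those letters) and TATA boxes (TATAAA). No match to one motif overlapped a match to another.
Hba-x, chr11:32276350-32276599, + strand: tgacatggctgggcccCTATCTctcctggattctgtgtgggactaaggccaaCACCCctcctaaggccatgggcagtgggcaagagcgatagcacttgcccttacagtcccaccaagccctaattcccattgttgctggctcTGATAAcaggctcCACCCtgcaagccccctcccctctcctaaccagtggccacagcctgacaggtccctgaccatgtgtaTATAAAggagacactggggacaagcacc
Hbb-y, chr7:103853208-103853457, - strand: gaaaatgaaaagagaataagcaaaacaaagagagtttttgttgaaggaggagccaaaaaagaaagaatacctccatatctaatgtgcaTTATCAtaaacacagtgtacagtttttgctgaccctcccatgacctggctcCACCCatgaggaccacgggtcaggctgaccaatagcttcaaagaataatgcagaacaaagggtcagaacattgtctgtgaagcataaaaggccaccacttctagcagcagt
Klf1, chr8:84901732-84901981, + strand: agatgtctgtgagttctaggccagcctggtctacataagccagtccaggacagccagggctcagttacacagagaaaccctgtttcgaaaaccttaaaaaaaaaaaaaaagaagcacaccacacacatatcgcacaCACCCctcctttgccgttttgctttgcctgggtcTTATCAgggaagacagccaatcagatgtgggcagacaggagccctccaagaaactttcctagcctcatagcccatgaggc
Alas2, chrX:150547167-150547416, + strand: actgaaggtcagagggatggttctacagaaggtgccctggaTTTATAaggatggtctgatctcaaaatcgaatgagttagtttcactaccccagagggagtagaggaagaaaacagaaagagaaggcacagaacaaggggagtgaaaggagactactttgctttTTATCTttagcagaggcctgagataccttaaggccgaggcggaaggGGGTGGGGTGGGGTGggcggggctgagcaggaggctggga

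Hba-x held 2 GATA boxes, 2 CACCC boxes and a TATA box that begins 28 bases before the start. Hbb-y held 1 GATA box and 1 CACCC box, at 162 and 111 bases before the start. Klf1 held 1 CACCC box at 114 and 1 GATA box at 80 bases before its own start. Alas2 held 1 GATA box at 86 bases and 3 CACCC boxes, on the reverse strand, at 40, 35 and 30 bases before the start, and its TATA match lay far upstream, at 209 bases. The window of Epor held 1 GATA box and 2 CACCC boxes, and that of Gata1 held 2 CACCC boxes and no GATA box. Among 32851 windows of the same length in the table, 26.5% held a GATA box, 52.0% a CACCC box and 12.4% a TATA box. These matches are a description of letters, not of bound sites.

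Necdin null and wild type LSK cells did not separate in any of the 6 genes that could be tested. For each of Klf1, Gata1, Epor, Alas2, Car1 and Slc4a1 the signals of the 2 groups overlapped, and the limma adjusted p was 0.999 or 1.00 after rounding. In the fit over 12680 genes 0% of genes passed the threshold, 3.02% had an unadjusted limma p under 0.05, and 30.5% had groups that did not overlap. Among the 6 genes, 0 passed, 0 had an unadjusted p under 0.05, and 0 had groups apart. Mean log2 signals were higher in necdin null cells for 2 of the 6, where 45.9% of all genes tested were higher, and lower for 4. Their median log2 difference was -0.04, beside -0.03 over all genes tested. The differences below are on the log2(signal + 3.80) scale, which understates the change of dim genes. With 2 arrays a group, the smallest two-sided p of an exact permutation test is 0.333. The targeted gene Ndn did not pass either. On its main probe set the log2 difference was -1.68, with an unadjusted limma p of 0.0056 and a limma adjusted p of 0.999. Its other probe sets above the filter, not part of this fit, had larger drops, from -4.03 (1415923_at) to -5.89 (1435383_x_at). A gene that does not pass here is therefore not shown to be unchanged.

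**Figure D1:**
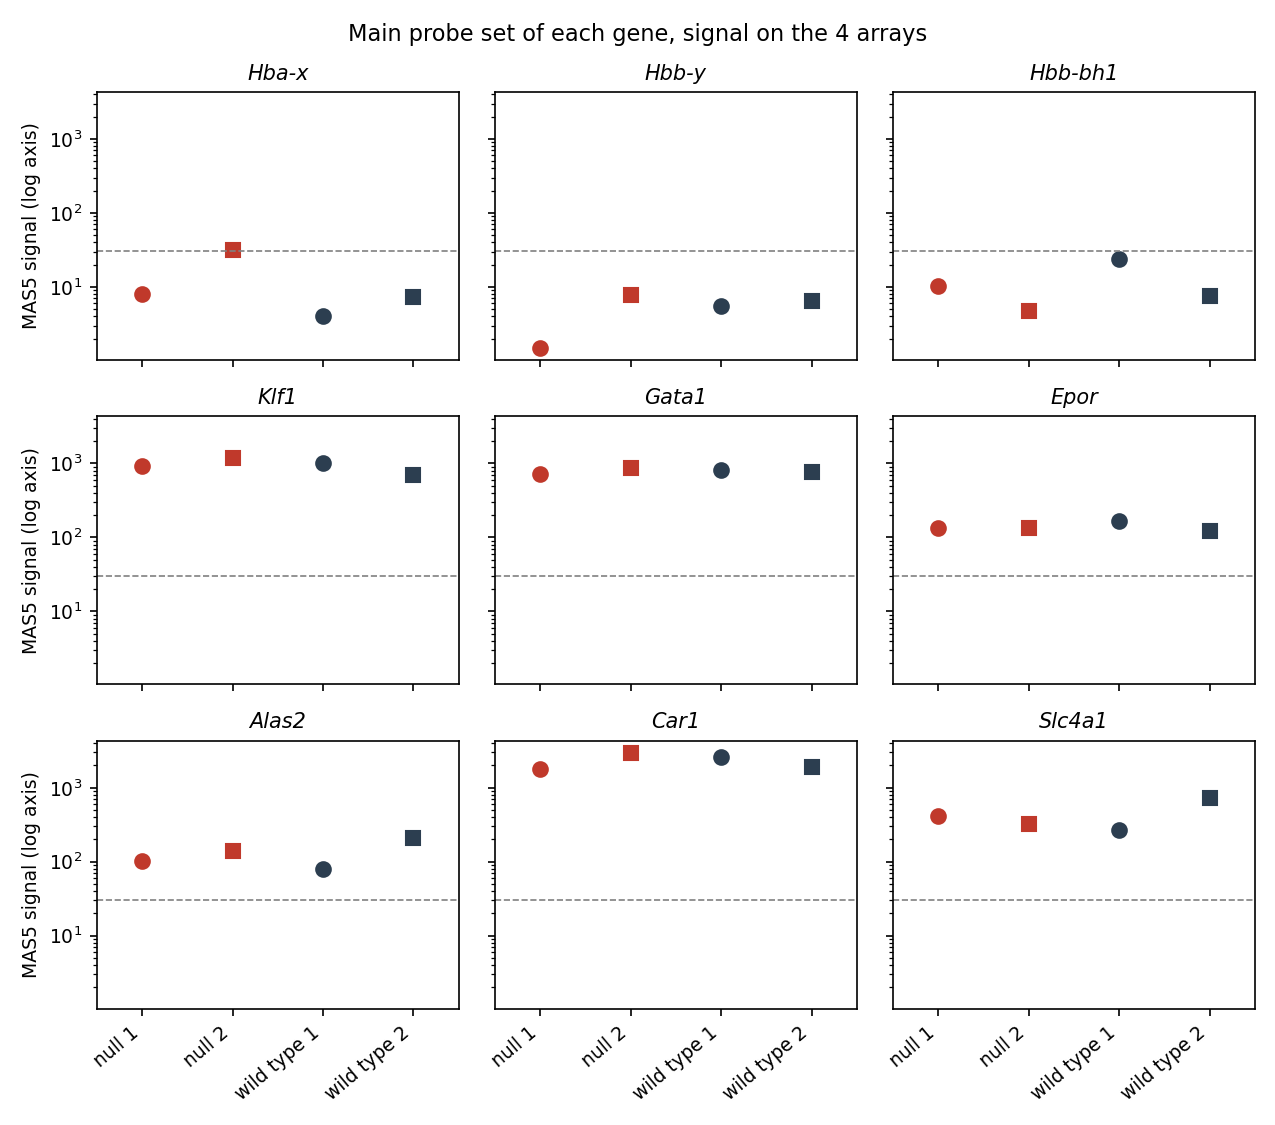
Signal of the main probe set of each gene (vertical log axis, MAS5 signal) on the 2 necdin null arrays (red) and the 2 wild type arrays (dark blue), with circles for replicate 1, squares for replicate 2 and the dashed line at the filter, a signal of 30.3. The 3 embryonic globin genes lie near or below the line on every array, the other 6 above it, and no gene above the line has its red points clear of its blue ones.

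Klf1 had signals of 909.8 and 1188 in necdin null cells and 1007 and 696 in wild type cells. The groups interleave, with the highest value in necdin null replicate 2 and the lowest in wild type replicate 2. The means were 1049 ± 197 in necdin null and 851 ± 219.5 in wild type cells (SD, n = 2 each), and the log2 difference was 0.31 with a standard error of 0.26. This was the largest difference among the 6 genes in favour of necdin null cells, and its sign differed between the array pairs of equal number: -0.15 for replicate 1 and 0.77 for replicate 2.

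Gata1 was the steadiest of the 6. Its signals were 726 and 863 in necdin null and 821 and 766 in wild type cells, so the wild type values lay between the necdin null ones. The means were 794.5 ± 96.7 and 793.6 ± 38.7 (SD, n = 2 each), and the log2 difference was -0.0027 with a standard error of 0.23. Its 95% limma interval, from -0.52 to 0.52, covers 0.695-fold to 1.43-fold of the wild type level. Gata1 lies on the X chromosome, as does Alas2, and the sex-linked signals of the arrays were uneven. Xist, made from the inactive X chromosome, had 4841 and 76.8 in necdin null and 9930 and 7182 in wild type cells. The Y-linked gene Eif2s3y had 2273 and 2987 in necdin null and 32.6 and 1974 in wild type cells. Signals of both kinds were thus high on necdin null replicate 1 and wild type replicate 2, and wild type replicate 1 was low for the Y-linked gene. Arrays of the same group therefore did not hold the same mix of cells by sex. The part of sex in the signals of the members was not tested.

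Epor, the erythropoietin receptor gene, had 135 and 135 in necdin null cells and 168 and 122 in wild type cells. The necdin null arrays agreed closely and lay between the wild type values. The log2 difference was -0.09 with a standard error of 0.43 and a 95% interval from -1.05 to 0.88. That interval covers 0.482-fold to 1.84-fold of the wild type level.

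Alas2 encodes the erythroid form of the enzyme that starts haem synthesis. Its signals were 102 and 141 in necdin null and 78.6 and 208 in wild type cells. Both wild type arrays lay outside the necdin null pair, one below and one above it. The log2 difference was -0.10 with a limma standard error of 0.55, the widest limma error of the 6 genes, and the 95% interval ran from -1.34 to 1.15.

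Car1, carbonic anhydrase 1, is an early product of the erythroid lineage in the mouse. It had 1806 and 2958 in necdin null cells and 2566 and 1883 in wild type cells. The wild type values lay inside the necdin null range. The means were 2382 ± 815 and 2224 ± 483 (SD, n = 2 each), and the log2 difference was 0.07 with a standard error of 0.27. For Car1 too the array pairs of equal number pointed in opposite directions, at -0.51 for replicate 1 and 0.65 for replicate 2.

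Slc4a1 encodes band 3, the anion exchanger of the red cell membrane, and has 3 probe sets here. The main one, 1434502_x_at, gave 412 and 323 in necdin null and 267 and 722 in wild type cells. Probe set 1416464_at gave 252 and 258 in necdin null and 156 and 465 in wild type cells. On both of them wild type replicate 1 was the lowest and wild type replicate 2 the highest array, with the necdin null arrays in between. The log2 difference of the main probe set was -0.27 with a standard error of 0.45. The third, 1431743_a_at, was below the filter at 1.79 and 20.4 in necdin null and 1.04 and 1.42 in wild type cells.

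Leaving out 1 array turned the sign for 5 of the 6 genes, all except Klf1. Without wild type replicate 2 the log2 difference was 0.59 for Alas2, 0.44 for Slc4a1 and -0.15 for Car1. Without wild type replicate 1 it was -0.78 for Alas2 and -0.98 for Slc4a1, whose unadjusted limma p was then 0.020 and whose adjusted p was 0.997. Car1 had -0.28 without necdin null replicate 2. Klf1 ranged from 0.05 to 0.58 over the 4 omissions. Omitting an array leaves 1 group with a lone array, whose spread is then taken from the other group.

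**Figure D2:**
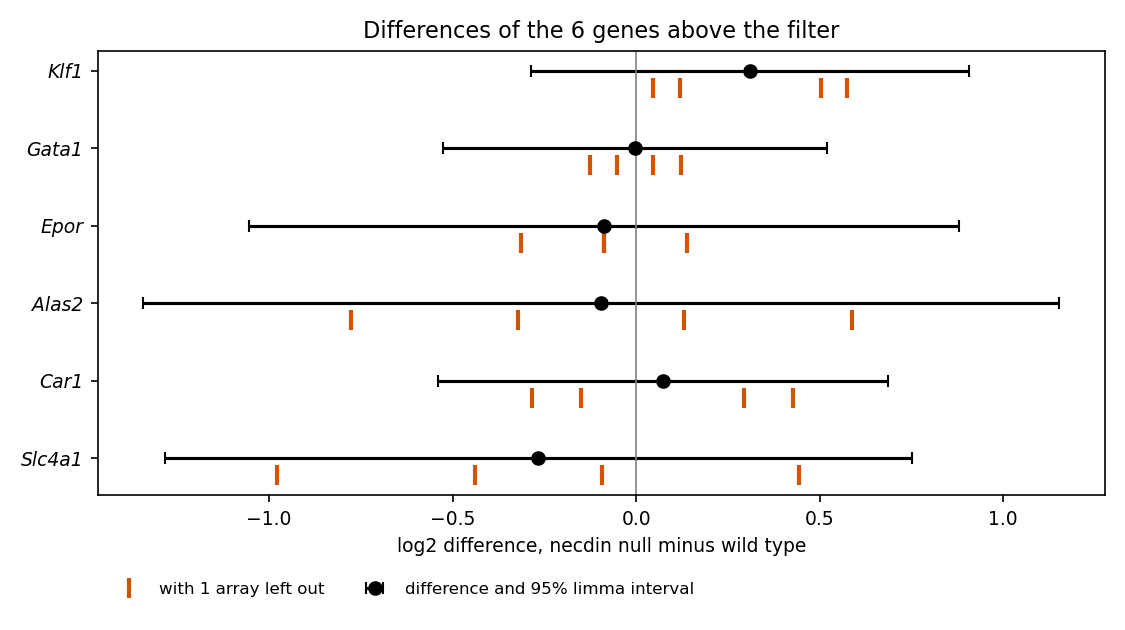
Log2 difference of each of the 6 genes above the filter (horizontal axis, necdin null minus wild type), with black points for the difference, black bars for its 95% limma interval and orange ticks for the difference with 1 of the 4 arrays left out. All 6 intervals include 0, and the ticks of every gene except Klf1 lie on both sides of it.

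Alas2 and Slc4a1 shared an order of the arrays. Both had their highest signal in wild type replicate 2 and their lowest in wild type replicate 1 of the 4 arrays, on all of their probe sets above the filter. The named adult globin probe sets of Hba-a2 and Hbb-b2 had the same order, which makes 6 of 6 probe sets for these 4 genes, picked out after their values were seen. Most of the probe sets annotated to several adult globin genes, given further on, did not have it. Of all 12680 genes tested, 9.50% had this order. Erythroid lists that hold none of these 4 genes had it in few genes. These were 0 of the 11 tested red cell enzymes and late products, 2 of 12 haem synthesis genes, 2 of 12 iron genes and 1 of 15 red cell membrane genes. Over all the erythroid lists other than the members, adult globins included, 9 of 84 tested genes had it, beside the 9.50% of all genes. None of Klf1, Gata1, Epor and Car1 had it, and Klf1 and Epor had their lowest signal in wild type replicate 2.

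**Figure D3:**
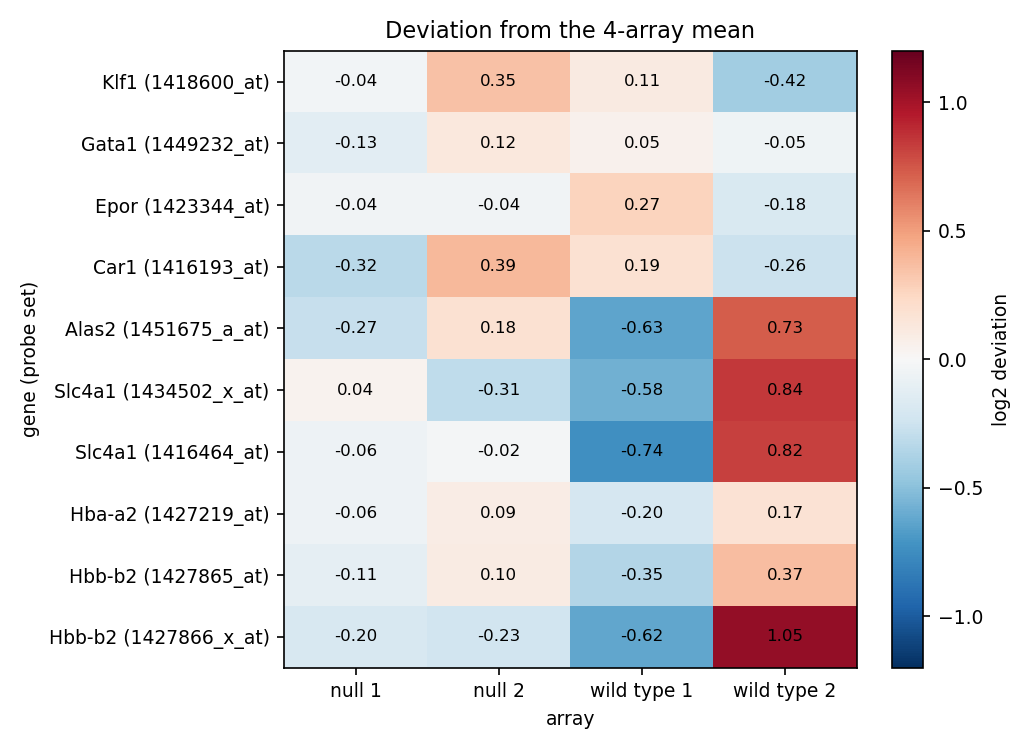
Deviation of each probe set from its own 4-array mean (log2 scale, colour and printed value) for the 6 genes above the filter and 2 adult globin genes, with arrays in columns. The 6 lower rows (Alas2, Slc4a1, Hba-a2 and Hbb-b2) are bluest in wild type replicate 1 and reddest in wild type replicate 2, up to 1.05 for an Hbb-b2 probe set, while Klf1 has -0.42 there.

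Signals of mature blood cells also differed between the arrays. Of 12 macrophage and monocyte markers on the array 10 passed the filter, and 5 of the 10 had the order of Alas2 and Slc4a1, beside 9.5% of all genes tested. Hmox1 and Slc40a1 are among these 5 and are also the iron genes counted with this order above, so the lists are not separate. Csf1r, the receptor of the macrophage growth factor, had it, with 1272 and 2104 in necdin null and 834 and 3497 in wild type cells. The summed signal of the 12 markers was 30644 and 55471 in necdin null and 26712 and 39816 in wild type cells, so it was lowest in wild type replicate 1 but highest in necdin null replicate 2, and no listed marker was at 0. All 15 neutrophil markers passed the filter and 3 had the order, while 13 were lowest in wild type replicate 1, as were 23.6% of all genes tested. The neutrophil sums were 103110 and 212650 in necdin null and 79051 and 148670 in wild type cells. B lineage markers, 7 of 8 above the filter and 1 with the order, summed to 15443 and 31899 in necdin null and 5987 and 28513 in wild type cells. The surface markers of erythroid progenitors, 7 of 8 on the array, summed to 3758 and 4269 in necdin null and to 3188 and 3125 in wild type cells and had no such order. Mean log2 signals were higher in necdin null cells for 6 of these 7 and lower for 1, where 45.9% of all genes tested were higher. Their median log2 difference was 0.26, beside -0.03 over all genes tested. Groups were apart and higher for 2, where 12.8% of all genes tested were so, and 0 passed the test. The part of other cells in the Alas2, Slc4a1 and globin signals was not tested. In bulk RNA, fewer cells of a type and less RNA per cell cannot be told apart.

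Adult globins, made in the fetal liver and in adult marrow, were measured by few probe sets with a single gene name. Hba-a2, an adult alpha globin, had 267 and 296 in necdin null and 241 and 313 in wild type cells (difference on the log2 scale 0.03, standard error 0.33). Hbb-b2, an adult beta globin, had 112 and 130 in necdin null and 94.3 and 158 in wild type cells (difference on the log2 scale -0.01, standard error 0.47). The groups overlapped for both genes. A probe set of Hba-a1 lay below the filter, at 23.3 and 7.67 in necdin null and 57.8 and 7.15 in wild type cells. A further 4 probe sets are annotated to several adult globin genes and are named here by identifier only. Probe set 1417184_s_at had 13121 and 18945 in necdin null and 11461 and 17114 in wild type cells, so the replicate 2 arrays of both groups were brighter than the replicate 1 arrays. Probe sets 1428361_x_at and 1452757_s_at had the same split by number, and 1417714_x_at had 817 and 855 in necdin null cells and 863 and 1726 in wild type cells. Of these probe sets only 1452757_s_at had the array order of Alas2 and Slc4a1, with 8796 and 11755 in necdin null and 7235 and 11822 in wild type cells. Probe sets 1417184_s_at and 1428361_x_at were highest in necdin null replicate 2, and 1417714_x_at was lowest in necdin null replicate 1.

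The embryonic globin genes gave low signals on all 4 arrays. Their 7 probe sets yielded 28 values, of which 27 were below the filter at a signal of 30.3, and the median was 3.90. Detection calls were not used here, so a low signal is given as a value and not as absence.

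Hba-x, the embryonic zeta-type alpha globin, had 8.05 and 31.8 in necdin null and 4.10 and 7.39 in wild type cells. Both necdin null values exceeded both wild type values, and one of them was the only embryonic globin value above the filter. The log2 difference was 1.13, with no test because the gene did not pass the filter. Of the 12680 genes tested, 12.8% were higher with groups apart. Without necdin null replicate 2 the difference was 0.33, and without necdin null replicate 1 it was 1.92, so its size rests on necdin null replicate 2. Omitting wild type replicate 1 gave 0.88, and omitting wild type replicate 2 gave 1.38.

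Hbb-y, the embryonic epsilon-type beta globin, had 1.51 and 7.81 in necdin null and 5.59 and 6.41 in wild type cells on its main probe set, so the groups overlapped. The log2 difference of -0.32 ranged from -0.88 to 0.24 with 1 array left out. Its other probe sets did not point one way. Probe set 1436823_x_at gave 0.423 and 6.22 in necdin null and 0.311 and 0.846 in wild type cells, and 1436717_x_at gave 1.07 and 0.499 in necdin null and 1.34 and 3.67 in wild type cells. All 12 values of this gene were below the filter.

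Hbb-bh1, the other embryonic beta-type globin, had 10.4 and 4.75 in necdin null and 23.6 and 7.54 in wild type cells. The groups overlapped on this probe set, and the log2 difference of -0.68 ranged from -1.31 to -0.04 with 1 array left out. Probe set 1450736_a_at had 3.69 and 8.49 in necdin null and 3.29 and 2.34 in wild type cells, and 1437990_x_at had 2.82 and 1.55 in necdin null and 1.44 and 4.98 in wild type cells. The 3 probe sets of Hbb-bh1 thus gave 3 different orders of the arrays.

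Regulators of globin switching and of fetal stem cells were listed because of the fetal origin of the graft. Of 11 on the array 10 passed the filter, 6 with higher and 4 with lower mean log2 signals in necdin null cells, and 0 passed the test. Hmga2, a chromatin protein of fetal stem cells, had 297 and 368 in necdin null and 137 and 237 in wild type cells (difference on the log2 scale 0.86, standard error 0.39, limma adjusted p = 0.999). Its probe set 1422851_at also had groups apart, at 129 and 165 in necdin null cells and 92.5 and 124 in wild type cells, and 1450781_at overlapped. Igf2bp3, a fetal RNA-binding protein, had 130.3 and 42.2 in necdin null and 140.1 and 240.5 in wild type cells (-1.26, standard error 0.60). Its probe set 1433732_x_at gave 54.2 and 63.5 in necdin null cells and 132 and 123 in wild type cells. Lin28b, an RNA-binding protein of fetal blood stem cells, was below the filter at 17.4 and 2.02 in necdin null and 0.541 and 5.40 in wild type cells. Chd4, a chromatin remodeller, had a log2 difference of -0.29 and Sox17, a factor of fetal stem cells, one of -0.62. Sox17 was dim, at 34.7 and 19.3 in necdin null and 37.4 and 47.4 in wild type cells. Its other probe set, 1429177_x_at, was below the filter and had 0.54. Hepatoblast markers, listed as a sign of liver cells carried over with the graft, were mostly low: 5 of 13 passed the filter, where 12680 of all 18194 genes did. Albumin (Alb), below it, had 31.1 and 21.4 in necdin null and 23.8 and 34.95 in wild type cells. Ttr, Apoa1, Ahsg, Fga, Fgb, Fgg and Serpina1b were below it too. Afp, the fetal liver protein alpha-fetoprotein, had 2355 and 2147 in necdin null and 2135 and 2138 in wild type cells, and the keratin gene Krt18 had 2513 and 1740.4 in necdin null and 2591 and 1570.3 in wild type cells. Krt8, another keratin gene, had 67.1 and 43.7 in necdin null and 56.4 and 52.1 in wild type cells. Apoa2 and Dlk1 passed the filter too. Apoa2 had 111 and 8.78 in necdin null and 66.9 and 104 in wild type cells. Dlk1 had 70.4 and 46.6 in necdin null and 23.7 and 92.8 in wild type cells.

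The wider erythroid programme showed no called gene either. In the lists of adult globins, transcription factors, globin switching, erythropoietin signalling, haem synthesis, iron handling, red cell membrane and red cell enzymes, 84 of 109 genes were tested. Of these 43 had higher and 41 lower mean log2 signals in necdin null cells, 0 passed the test, and the median log2 difference was 0.02. Groups were apart and higher for 11 of the 84 and apart and lower for 12, where 12.8% and 17.7% of all genes tested were so.

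Among 14 transcription factors and partners, 7 were higher and 7 lower. Zfpm1, the FOG1 partner of GATA1, had 727 and 671 in necdin null and 1045 and 876 in wild type cells, with groups apart (-0.45 on the log2 scale, standard error 0.23). Gata2, the stem cell GATA factor, had 2132 and 1863 in necdin null and 3158 and 2128 in wild type cells, which overlap by a narrow margin (-0.38). Tcf3, an E protein partner of TAL1, had -0.39, and Lmo2, the bridge of the same complex, had 0.29. Among 8 genes of erythropoietin receptor signalling, 4 were higher and 4 lower. Socs3, a feedback inhibitor, had 418 and 440.5 in necdin null and 225 and 367 in wild type cells (0.57). The kinase gene Pim1 had 0.25, the inhibitor Cish -0.26 and Stat5b, a signal transducer of the receptor, -0.19.

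Haem synthesis genes had 3 higher and 9 lower of 12, with a median of -0.08, beside 45.9% higher and a median of -0.03 over all genes tested. Of the 12, 7 were highest in wild type replicate 2, as were 28.7% of all genes tested. Tspo2, an erythroid cholesterol-binding membrane protein, had 75.7 and 21.0 in necdin null and 90.6 and 159.5 in wild type cells (-1.48, standard error 0.68). The mitochondrial transporter genes Slc25a38 and Slc25a39 had -0.45 and 0.28, and the porphyrin transporter Abcb6 had -0.43. Iron genes had 8 higher and 4 lower of 12. Tfrc, the transferrin receptor, had 633 and 1133 in necdin null and 462 and 637 in wild type cells, which just overlap (0.64, standard error 0.33). The iron importer Slc11a2 had -0.55, the iron regulatory protein gene Ireb2 -0.29 and the ferritin heavy chain Fth1 0.25.

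Red cell membrane genes had 7 higher and 8 lower of 15. Mpp1, a scaffold protein of the red cell membrane, had 2052 and 2310 in necdin null and 1751 and 1586 in wild type cells, with groups apart (0.39, standard error 0.19). Tspan33, a tetraspanin of erythroid progenitors, had -0.41, the Rhesus protein gene Rhd 0.57 and the skeletal protein adducin 2 (Add2) -0.91. Red cell enzymes and late products had 7 higher and 4 lower of 11. Trim10, a gene of terminal erythroid maturation, had 164 and 68.0 in necdin null and 107 and 297 in wild type cells (-0.73), and Cpeb4, Tmcc2 and Pklr had 0.46, 0.29 and 0.42. Pklr had 68.8 and 120 in necdin null and 67.4 and 66.9 in wild type cells, so its difference rests on necdin null replicate 2. The limma adjusted p of each gene named in these lists was 0.999.

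**Figure D4:**
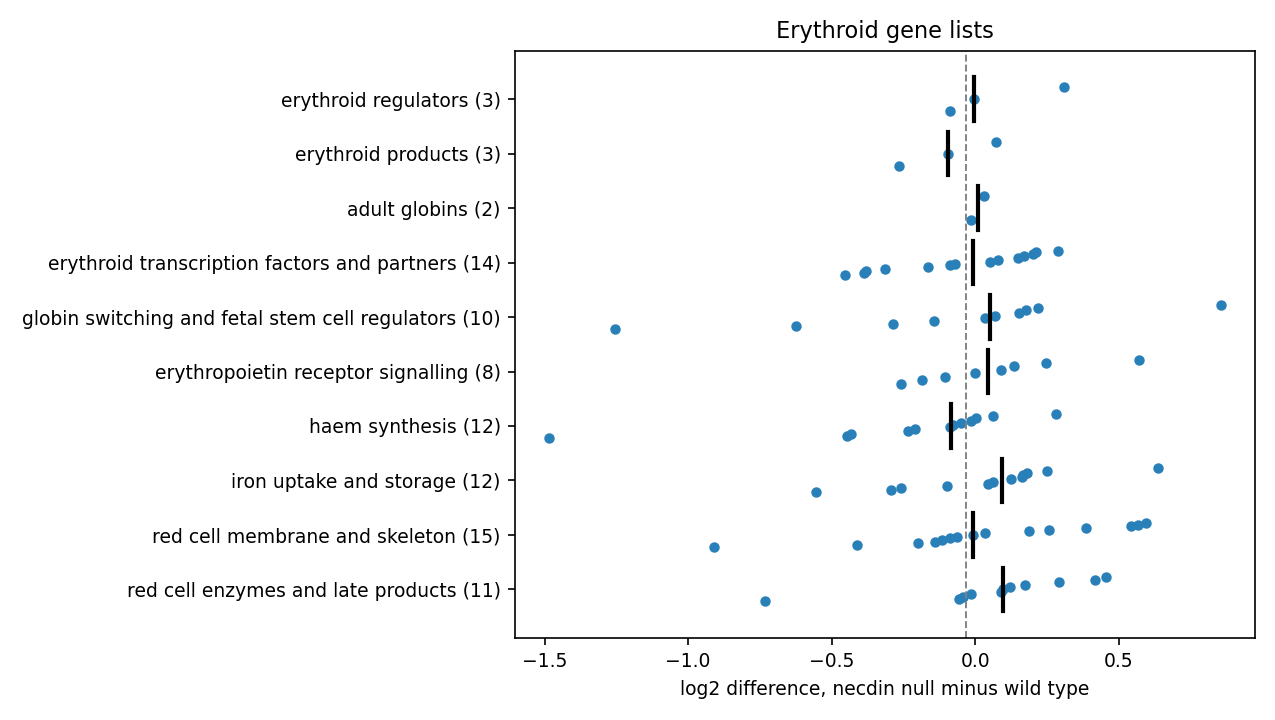
Log2 difference (horizontal axis, necdin null minus wild type) of each tested gene in 10 erythroid lists, with the number of genes tested in brackets, black bars for list medians and the dashed line for the median of all genes tested, -0.03. The list medians lie between -0.10 and 0.10, close to that line.

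Genes whose array pattern was most like that of Car1, the member of brightest main probe set, were found by the mean absolute difference between log2 values centred on each gene's mean over the 4 arrays. The nearest were Senp7, a SUMO protease gene, at 0.032, Sap30, a subunit of a histone deacetylase complex, at 0.036, and Nagk, a sugar kinase gene, at 0.038, where 80 of 12679 other genes lay within 0.1. Of the other members, Klf1 was the nearest to Car1, at 0.14, and Slc4a1 the farthest, at 0.73. Alas2 and Slc4a1 were 0.24 apart. With 4 arrays such likeness is a description of these arrays only.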

How the data were processed

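Expression was measured on 4 one-colour Affymetrix 3' arrays of 45101 probe sets, 2 necdin null and 2 wild type. The deposited intensity values were made with MAS5, per the submitters' processing notes; they are linear, and their mean after trimming 2% at each end was 500.004 on each array. The version of MAS5, the genome build and the time between irradiation and collection are not given in the sources used here. Precision is limited by the number of arrays.

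Of the probe sets, 34958 had 1 gene symbol in the platform annotation, 932 several and 9211 none; only the first were named. Values were analysed as log2(signal + 3.80), the pseudocount being the 10th percentile of all values, with no further normalization. Main probe sets at or above the 40th percentile (log2 value 5.09, signal 30.3) were kept, 12680 of 18194 genes. Groups were compared with limma 3.58.1 in R 4.3.3 (lmFit, eBayes with intensity trend, two-sided, Benjamini-Hochberg over all genes kept, threshold 0.05), and the code was tested on simulated data. Members and lists were chosen with earlier results of these data known. Named were Ndn, all members, the measured adult globins, up to 4 genes of smallest p per erythroid list, and the 3 genes nearest to the brightest member; further marker genes and probe sets were named after their values were seen. Alternatives changed the pseudocount, the filter, the scaling, the variance trend and the probe sets, fitted the replicate number as a block, or omitted each array.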

Additional observations from a re-analysis of the deposited data

How the results depend on the processing

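No member passed the test under any alternative run. The count of genes called over the whole table was 0 and stayed 0 with other pseudocounts, filters, scalings, probe set choices and without the intensity trend. It was 3 with the replicate block (Ddit4, Gas2l3 and Tcl1b3, named after their values were seen), which called no member, and 0 to 4 when 1 array was left out, none of them a member. The replicate numbers were not taken as pairing. Across genes, the difference between replicates 1 and 2 in necdin null cells correlated at 0.11 with that in wild type cells, with only 2 pairs. Some sets did share a direction: the neutrophil, monocyte and B lineage sums were higher on replicate 2 in both groups. The median log2 difference of the 6 tested members, -0.04, ranged from -0.11 to 0.13 when 1 array was left out. Uncalled signs near 0 turned for Car1 with median centring (-0.0084) and for Gata1 with quantile normalization (0.058). Slc4a1 turned with the mean of its probe sets (0.29), which gives its dim probe set 1431743_a_at (1.21 on its own) equal weight. With 1 array left out, Gata1 ranged from -0.13 to 0.12, Epor from -0.31 to 0.14, Alas2 from -0.78 to 0.59, Car1 from -0.28 to 0.43 and Slc4a1 from -0.98 to 0.44. The median over all genes was -0.11 with median centring and -0.03 without it. Alas2, Hbb-y and Hbb-bh1 have no value over probe sets without _s_at, _x_at or _a_at. Signals below the filter limit what can be said of the embryonic globins: single probe sets of Hbb-y and Hbb-bh1 gave 0.57 and 0.54, against -0.32 and -0.68 for their main probe sets.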
